A study of Mus musculus with 4 samples.

Results

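Acute-phase and antimicrobial proteins are the secreted arm of innate defence, and the 8 genes described here are those of this kind that were followed in CSF1R+ myeloid cells of the mouse heart: Saa3, Slpi, Lcn2, Hp, Lbp, Chil3, Prtn3 and Lyz2. They were chosen by name, as 8 of the 31053 genes in the deposited count tables, and every one of them was found in each library. Serum amyloids, haptoglobin and lipopolysaccharide-binding protein are best known as liver products of the acute-phase response, in which IL-1 and IL-6 act through NF-kB, STAT3 and C/EBP factors. Lysozyme, neutrophil gelatinase-associated lipocalin and proteinase 3 are granule or secreted products of neutrophils and phagocytes, and secretory leukocyte protease inhibitor restrains such proteases.

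Single-cell RNA sequencing (10x Genomics, 3' tags with unique molecular identifiers, UMIs) had been performed on Ly6G- EGFP+ cells sorted from hearts of CSF1R-EGFP mice, a reporter line on a C57BL/6J background in which the Csf1r promoter drives EGFP, at 12-16 weeks of age. The baseline group was 1 library made of 3 pooled hearts without surgery. The infarct group had 3 libraries, each from the infarcted tissue of 1 heart taken 7 days after ligation of the left coronary artery. The baseline therefore has no replicate, and the Csf1r promoter is also active in granulocytes and some B cells, so the sort is not restricted to macrophages.

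The tables held 10314 baseline cells and 10144 to 10804 cells per infarct library, of which 10117 to 10782 per library were kept, with a median of 6398.5 UMIs per cell at baseline and 8469.5 to 8556.5 in the infarct libraries. A Csf1r UMI was found in 89.7% to 93.9% of kept cells and a Ptprc (CD45) UMI in 93.0% to 96.1%, while Ly6g had 0 to 3 UMIs per library. Any pair of libraries shared 26 to 34 barcodes. Levels are given as CPM, the UMIs of a gene per 1000000 summed UMIs of all genes but mitochondrial ones, on a linear scale. Each transcript is counted once at its 3' end, so levels are not divided by length.

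RefSeq promoters (assembly GRCm38.p6, from 250 bases before to 50 after the annotated start) were given for 6 of the 8 members, all but Hp and Lbp. Promoters of Saa3, Slpi and Prtn3 are shown because these genes were high in the same infarct cells, and that of Chil3 because it was high in other cells. Saa3 lies at chr7:46711998-46715700 (GRCm38, minus strand) and its promoter at chr7:46715627-46715926. Slpi lies at chr2:164354070-164389095 (minus strand, promoter chr2:164356458-164356757), Prtn3 at chr10:79874476-79883174 (plus strand, promoter chr10:79879417-79879716) and Chil3 at chr3:106147554-106167564 (minus strand, promoter chr3:106167515-106167814). The gene spans are those of GENCODE, and the Slpi and Prtn3 windows, placed at RefSeq's start, lie inside the longer spans that GENCODE gives these genes. Each is written 5′ to 3′ along the gene, with matches to the motifs named after them in capitals.
Saa3: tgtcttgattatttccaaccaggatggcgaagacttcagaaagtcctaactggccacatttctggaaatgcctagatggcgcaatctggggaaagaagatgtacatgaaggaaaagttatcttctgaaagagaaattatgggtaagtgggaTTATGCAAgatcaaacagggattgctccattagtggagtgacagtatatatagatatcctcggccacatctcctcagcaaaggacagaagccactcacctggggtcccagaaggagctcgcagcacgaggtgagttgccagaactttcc
Slpi: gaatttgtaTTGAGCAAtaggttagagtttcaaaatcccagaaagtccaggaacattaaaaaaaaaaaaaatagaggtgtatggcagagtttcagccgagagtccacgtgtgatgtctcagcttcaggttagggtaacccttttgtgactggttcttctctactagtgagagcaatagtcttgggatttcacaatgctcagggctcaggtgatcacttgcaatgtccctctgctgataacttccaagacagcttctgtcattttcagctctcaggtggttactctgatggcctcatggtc
Prtn3: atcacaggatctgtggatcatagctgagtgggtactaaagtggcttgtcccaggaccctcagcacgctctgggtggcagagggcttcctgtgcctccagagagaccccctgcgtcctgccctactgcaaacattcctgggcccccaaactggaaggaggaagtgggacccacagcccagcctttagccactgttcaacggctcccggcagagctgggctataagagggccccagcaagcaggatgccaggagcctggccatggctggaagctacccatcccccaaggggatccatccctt
Chil3: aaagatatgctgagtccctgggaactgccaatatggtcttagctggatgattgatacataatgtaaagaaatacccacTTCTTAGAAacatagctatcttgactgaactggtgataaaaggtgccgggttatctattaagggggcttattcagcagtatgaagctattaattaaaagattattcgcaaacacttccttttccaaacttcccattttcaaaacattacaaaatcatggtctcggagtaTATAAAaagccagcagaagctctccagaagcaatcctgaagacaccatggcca

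The capitals in Saa3 and Slpi mark TTNNGCAA, a core of C/EBP sites searched on both strands, at bases -99 to -92 and -241 to -234 from the annotated start. The letters occur in 10.8% of the 32851 promoters of the same length. Lcn2 also holds them (bases -216 to -209), and Prtn3, Lyz2 and Chil3 do not. Chil3 alone among the 6 holds TTCNNNGAA, a STAT core found in 8.30% of promoters (bases -172 to -164), and TATAAA, found in 13.6% (bases -3 to 2). An NF-kB core, found in 5.56% of promoters, is in none of the 6 windows. These are matches of letters and not measured binding.

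In order to see how infarction changed the abundance of each transcript, the level over all kept cells was compared with baseline. Saa3, a serum amyloid A made chiefly outside the liver, macrophages included, was at 6.6 CPM at baseline (exact 95% Poisson interval 6.0 to 7.24, counting error only), and at 1317, 64.2 and 543 CPM in infarct libraries 1, 2 and 3. All 3 infarct libraries lay above baseline, with a mean of 641 ± 632 CPM (SD, n = 3), 97.2-fold over baseline, but infarct 1 held 20.5 times as much as infarct 2. Prtn3, the serine protease proteinase 3, was at 4.60 CPM at baseline and at 53.8, 7.22 and 35.6 CPM after infarction, a mean of 32.2 ± 23.5 CPM and 7.01-fold over baseline. The libraries stood in the same order for both genes, with infarct 2 nearest to baseline.

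Lbp, the plasma protein that hands lipopolysaccharide to CD14, was sparse, at 0.917 CPM (62 UMIs) at baseline and 4.93, 2.05 and 6.77 CPM after infarction, all 3 libraries above baseline and 5.00-fold in the mean. Chil3, the chitinase-like protein Ym1 of monocytes and neutrophils, was the member that lay below baseline in every infarct library, at 176 CPM against 98.6, 58.9 and 72.9 CPM (mean 76.8 ± 20.1), 2.30-fold lower in the mean. Its log2 ratio of -1.20 fell short of 2-fold under TMM scaling (-0.92) and when CPM was averaged over single cells (-0.71), below baseline in each case. A change of at least 2-fold with all infarct libraries on the same side was the rule set for a call, and no test was made against 1 library. Among 8249 genes reaching 10 CPM in a group, 2.35% met the rule above baseline and 7.21% below it. Of the 6 members reaching 10 CPM, 2 met it above (Saa3 and Prtn3) and 1 below (Chil3), and Lbp met it from below that minimum.

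The other members showed no such shift. Slpi was at 63.6 CPM at baseline and 69.8, 35.7 and 129 CPM after infarction, with 2 of 3 libraries above. Hp, haptoglobin, was at 88.6 CPM and then 114, 44.4 and 58.0 CPM, with 1 of 3 above. Lcn2, an iron-siderophore-binding lipocalin, was at 3.96 CPM and then 10.4, 2.72 and 3.23 CPM, again with 1 of 3 above. Lyz2, the lysozyme of mouse myeloid cells, was by far the most abundant member, at 14786.5 CPM at baseline and 12763, 13491 and 14931 CPM after infarction. In whole-library sums, fewer cells of a type and less RNA per cell cannot be told apart.

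**Figure D1:**
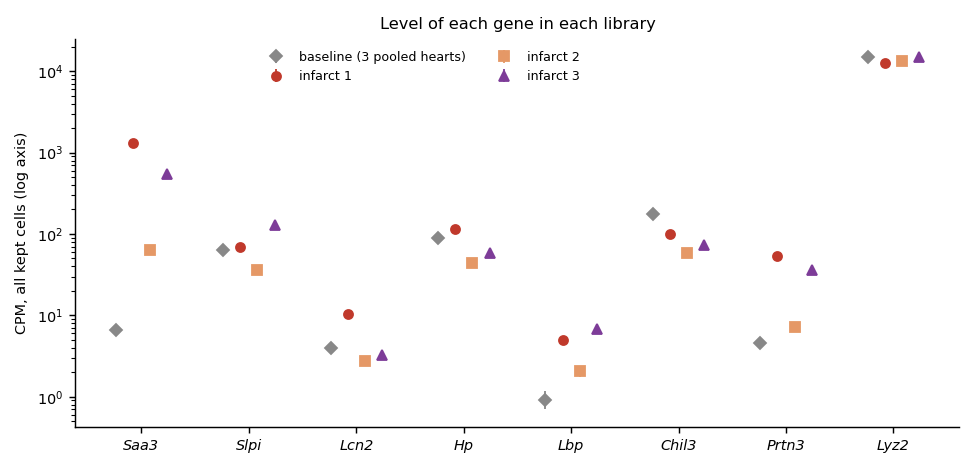
Level of each of the 8 genes over all kept cells of each library, in CPM on a logarithmic axis. Grey diamonds are the baseline library with its exact 95% Poisson interval, and red, orange and purple points are infarct libraries 1, 2 and 3. Saa3 and Prtn3 lie above baseline in all 3 infarct libraries and differ several-fold among them, and Chil3 lies below baseline in all 3.

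The transcripts were unevenly shared among cells. In infarct libraries 1, 2 and 3, Saa3 was found in 3819, 432 and 2277 cells, yet the top 100 cells held 39.4%, 94.0% and 51.5% of its UMIs, and 1 cell of infarct 1 held 1574. At baseline, 446 Saa3 UMIs lay in 75 cells. Slpi was as concentrated, with 72.2% of its baseline UMIs in the top 100 cells and up to 792 in 1 cell. Lyz2 was spread widely, with the top 100 cells of each library holding 4.97% to 6.27% of its UMIs. Myeloid types were therefore separated by gates on raw UMIs of marker genes that exclude all 8 members, and each gate was set against all other kept cells of the same infarct heart (edgeR quasi-likelihood test, Benjamini-Hochberg adjusted p below 0.01, n = 3 pairs of sums). The gates share most of their comparator cells. Their markers were chosen with earlier results of these data known, so the tests are not independent of those results.

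Saa3, Slpi, Prtn3 and Lbp were far higher in macrophages carrying at least 3 UMIs each of Arg1, the arginine-degrading enzyme, and Fn1, fibronectin, than in the other cells of the same hearts. Cells already taken by the Lyve1/Cd163/Folr2/Timd4, cycling or interferon gate were left out of this gate, which held 1012, 214 and 461 cells in the infarct libraries and 4 cells at baseline. Saa3 stood at 8214, 1444 and 5033 CPM in this gate, against 559, 25.1 and 303 CPM in all other cells, a log2 fold change of 4.53 (SE 0.348, edgeR adjusted p = 4.03e-05). The gate held 61.7%, 62.0% and 47.0% of each library's Saa3 UMIs. Slpi, the inhibitor of neutrophil elastase and cathepsin G, stood at 377, 532 and 1148 CPM against 36.1, 21.6 and 74.1 CPM (log2 fold change 3.94, SE 0.200, edgeR adjusted p = 4.98e-06). The order of the libraries differed, infarct 1 being highest for Saa3 and infarct 3 for Slpi.

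Prtn3 stood at 262, 46.8 and 299 CPM in the Arg1/Fn1 gate against 31.0, 6.10 and 21.6 CPM elsewhere (log2 fold change 3.26, SE 0.168, edgeR adjusted p = 5.34e-06). Lbp stood at 20.3, 12.0 and 36.7 CPM against 3.24, 1.76 and 5.17 CPM (2.71, SE 0.148, edgeR adjusted p = 7.35e-06). Hp was higher by less, 161 ± 90.0 against 64.9 ± 29.6 CPM (1.22, SE 0.161, edgeR adjusted p = 0.000761). Lcn2 was lower, at 2.15 ± 2.09 against 5.72 ± 4.63 CPM (-1.38, SE 0.288, edgeR adjusted p = 0.00811), but was 0.15 with other mononuclear phagocytes as the comparator (adjusted p = 0.795, range 0.000763 to 0.795 over the 11 alternatives). Chil3 (0.34, edgeR adjusted p = 0.187) and Lyz2 (0.11, edgeR adjusted p = 0.530) did not pass. Thus 5 members were higher and 1 lower, where 7.11% and 6.45% of the 13373 genes tested were called in these directions. The median over the 8 members was 1.97 and that over all genes -0.04. Without the heart as a block only Slpi and Lbp passed in this gate, and Saa3 then had an adjusted p = 0.0317 (range 3.14e-20 to 0.0317 over the 11 alternatives).

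A Saa3 UMI was found in 72.7%, 24.8% and 68.5% of Arg1/Fn1 cells, which had medians of 8363.5, 11644.5 and 8811 UMIs. B cells, which should lack it, carried one in 27.4% of the 73 infarct B cells (exact 95% binomial interval 17.6% to 39.1%, median 4470 UMIs), against 1.20% of the 83 baseline B cells. With each cell thinned to 2000 UMIs, the share was 60.5%, 20.7% and 58.7% in the Arg1/Fn1 gate and 11.3% in the B cell gate. The other C1q-high macrophages are those with at least 20 UMIs of C1qa, C1qb and C1qc per 10000 UMIs and in no named gate. The unthinned shares in them (2.80% to 29.7%) and in type 2 dendritic cells (4.02% to 22.2%) lay below the B cell share of the same library in all 3. These B cells were 25, 9 and 39 in number and held Saa3 at 1146 CPM in all, above the 641 CPM mean of all kept cells. They are thus a poor measure of free RNA, and whether the lower shares are expression was not tested.

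**Figure D2:**
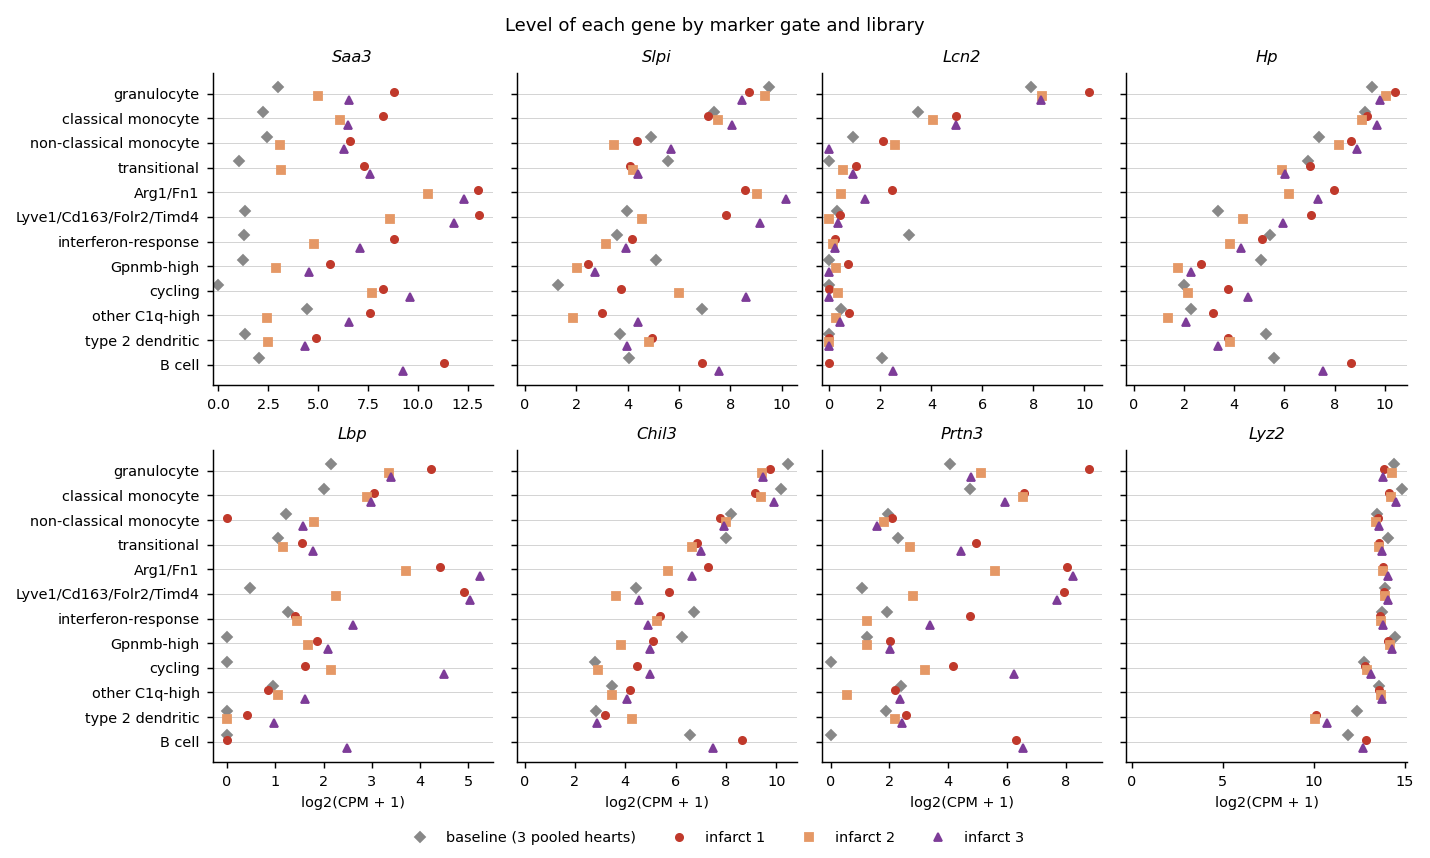
Level of each gene in 12 marker gates, as log2(CPM + 1), with 1 point per library (grey diamonds baseline, red circles infarct 1, orange squares infarct 2, purple triangles infarct 3). After infarction Saa3 is highest in the Arg1/Fn1 and Lyve1/Cd163/Folr2/Timd4 gates, Lbp in the Arg1/Fn1 gate in infarct 2 and 3 and in the Lyve1/Cd163/Folr2/Timd4 gate in infarct 1, Slpi is high in the Arg1/Fn1 gate and in granulocytes, Prtn3 is high in the Arg1/Fn1 gate and, in infarct 1, in granulocytes, Lcn2 is highest in granulocytes, Hp and Chil3 in granulocytes and classical monocytes, and Lyz2 is lowest in the type 2 dendritic gate. Gates with under 20 cells in a library carry no point for it.

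Macrophages with high C1q and at least 2 of Lyve1, Cd163, Folr2 and Timd4, markers of macrophages resident in the healthy heart, also held Saa3 after infarction. Their 3047 baseline cells held Saa3 at 1.54 CPM, and the 338, 143 and 377 infarct cells held it at 8681, 387 and 3569.5 CPM. Slpi was at 14.9 CPM at baseline and 230.1, 22.6 and 567 CPM, Prtn3 at 1.12 CPM and 244, 6.02 and 204 CPM, and Lbp at 0.386 CPM and 29.2, 3.76 and 32.0 CPM. All 3 infarct libraries lay above baseline for each of the 4 genes, infarct 2 least. The gate did not hold alike cells in both groups, since Timd4 was found in 48.2% of its baseline cells and in 4.73%, 15.4% and 10.6% of its infarct cells.

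Many infarct cells of this gate also met the Arg1/Fn1 rule, 73.1%, 10.5% and 52.3% of them against 1 of 3047 baseline cells. A division by that rule, chosen after the values were seen and given without a test, placed the 4 genes on the Arg1/Fn1 side. Saa3 was at 11018, 3123 and 4966 CPM in the 247, 15 and 197 cells that met it, and at 728, 5.14 and 1251 CPM in those that did not. Slpi was at 297, 166 and 877 CPM against 2.77, 2.57 and 53.0 CPM. Lyz2 differed little, at 15475, 12110 and 17584 CPM against 13568, 15981 and 17028 CPM.

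**Figure D3:**
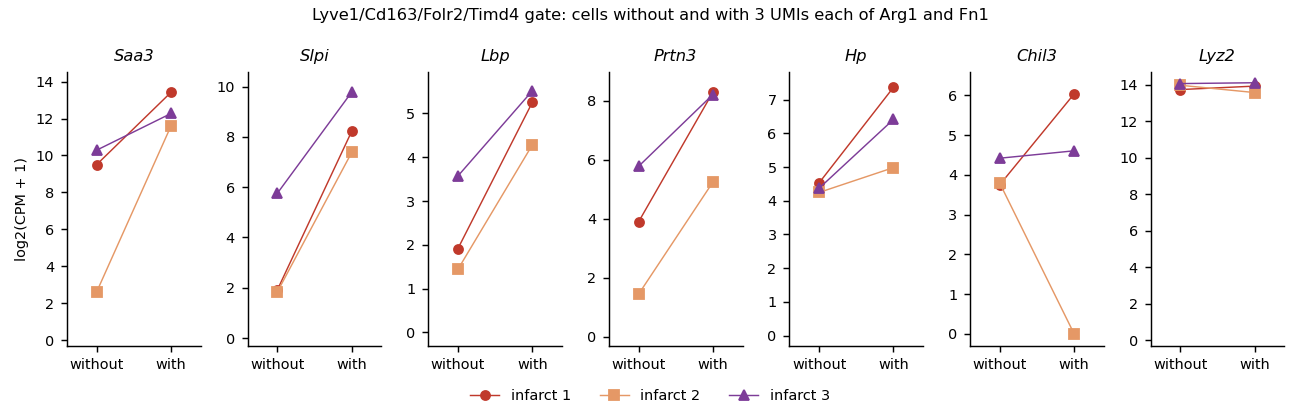
Level of 7 genes, as log2(CPM + 1), in cells of the Lyve1/Cd163/Folr2/Timd4 gate of each infarct library without and with at least 3 UMIs each of Arg1 and Fn1. Lines join the values of the same heart. Saa3, Slpi, Lbp, Prtn3 and Hp stand higher on the side with Arg1 and Fn1 in all 3 libraries, Chil3 in 2 of 3, and Lyz2 stays near the same level.

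Several markers of another macrophage type moved with these genes. A list of 8 genes of serous cavity macrophages (Gata6, Prg4, Alox15, Selp, F5, Cd5l, Icam2 and Garnl3), written after the values were seen, summed to 698, 253 and 823 CPM in the Arg1/Fn1 gate, with 6, 5 and 7 of the 8 genes at 10 CPM or more. It summed to 28.2, 17.6 and 26.4 CPM in the other C1q-high macrophages. Cd5l alone gave 335, 136 and 298 CPM of the sum in the Arg1/Fn1 gate. Garnl3 did not follow, at 2.51, 3.09 and 6.70 CPM against 2.74, 3.15 and 3.73 CPM in the other C1q-high macrophages. F5 was also found in granulocytes, at 57.2, 33.9 and 31.0 CPM. In the Lyve1/Cd163/Folr2/Timd4 gate the list stood at 19.8 CPM at baseline and at 692, 91.8 and 581 CPM after infarction, with infarct 2 again least, and Cd5l held most of it (532, 50.4 and 364 CPM). Gata6, the defining transcription factor of cavity macrophages, was at 6.40, 8.12 and 15.9 CPM in the Arg1/Fn1 gate. Arg1/Fn1 cells with at least 1 UMI of the 8 genes were 59.5%, 34.6% and 58.6% of the gate and held Saa3 at 13129, 3977 and 7464 CPM. Those with none held it at 1676, 129.7 and 1540 CPM, which was still above the 137, 8.88 and 76.3 CPM of the other cells of the libraries with none.

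For Slpi the same cells of the Arg1/Fn1 gate stood at 615, 1238 and 1836 CPM with a cavity gene and 60.1, 166 and 159 CPM without one, against 16.5 to 19.1 CPM in the other cells without one. Prtn3 stood at 384, 114 and 406 CPM, then 99.8, 11.7 and 145 CPM, against 14.5, 5.52 and 8.22 CPM. Lbp stood at 31.2 to 56.8 CPM, then 5.86, 0.587 and 7.88 CPM, against 1.52, 1.59 and 2.18 CPM. Among cells without a cavity gene UMI, Saa3, Slpi and Prtn3 thus stood higher in the Arg1/Fn1 gate in all 3 libraries, and Lbp in 2 of 3. A cell without a UMI of these sparse genes may still be a cavity macrophage, so this division does not remove such cells. Nor were the 8 genes particular to them, Cd5l being at 39.0, 33.7 and 23.4 CPM in the Gpnmb-high gate. The part of cavity macrophages was not tested. Lyz2 was alike in the 3 sets of cells, between 12412 and 17401 CPM.

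Several of these genes were also found in a few baseline cells, none of which met the Arg1/Fn1 rule. The shares below are of each gene alone. Among 3014 baseline C1q-high macrophages outside the named gates, 12 cells with at least 10 Slpi UMIs, picked after the values were seen and given without a test, held 97.2% of the gate's Slpi UMIs. Prg4 (lubricin) was found in 75.0% of them and in 0.400% of the other 3002 cells, and Gata6 in 41.7% and 0.200%. Saa3 was found in 58.3% and 0.633%, Prtn3 in 66.7% and 0.167%, and Lbp in 3 of the 12 cells and 0.300%. The 12 cells were deeper, with a median of 12498.5 UMIs against 5550.0. The part of cavity macrophages in the infarct levels was not tested beyond these values.

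Hp and Chil3 marked monocytes. In classical monocytes, gated on markers that include Ly6c2, Plac8, Ccr2 and Vcan with low C1q (738, 541 and 318 infarct cells), Chil3 stood at 568, 675 and 964 CPM and at 62.5, 29.2 and 44.9 CPM elsewhere (a log2 fold change of 4.10, SE 0.248, edgeR adjusted p = 8.41e-06). Hp stood at 625, 546 and 826 CPM against 74.5, 20.1 and 33.9 CPM (4.20, SE 0.309, edgeR adjusted p = 2.12e-05). Of the infarct libraries' Chil3 UMIs 40.2% to 52.7%, and of their Hp UMIs 39.2% to 56.7%, lay in these cells.

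Lcn2 (25.4 ± 8.42 against 4.45 ± 3.84 CPM, log2 fold change 2.72, edgeR adjusted p = 0.000274), Slpi (196 ± 64.5 against 72.5 ± 48.3 CPM, 1.67, edgeR adjusted p = 0.00147) and Lyz2 (19942 ± 2671 against 13426 ± 1164 CPM, 0.62, edgeR adjusted p = 1.73e-05) were also higher in classical monocytes. Prtn3 stood at 81.8 ± 19.5 against 29.6 ± 24.2 CPM, above the other cells in all 3 hearts, and did not pass (edgeR adjusted p = 0.0408), nor did Saa3 at 305, 66.6 and 89.1 CPM (adjusted p = 0.0160) or Lbp (0.0551). Thus 5 of 8 members were higher and 0 lower, where 13.9% and 14.5% of 13301 genes were called in each direction. Slpi lost its call without the heart as a block (adjusted p = 0.0341, range 1.35e-07 to 0.0341 over the 11 alternatives).

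The baseline classical monocytes held more Chil3 and Lyz2 than any infarct library. Their 755 cells stood at 1181 CPM for Chil3 and 29505 CPM for Lyz2, against at most 964 and 22912 CPM after infarction. Hp did not share this, at 599 CPM at baseline against 625, 546 and 826 CPM. Non-classical monocytes, gated on Ace, Spn, Treml4 and Eno3, held less Hp and Chil3, with Hp at 165 CPM at baseline and 402, 289 and 472 CPM after infarction and Chil3 at 289 CPM and 214, 257 and 242 CPM. This gate was not among the tests chosen.

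Lcn2 was highest in the granulocyte gate. The granulocyte gate (Cxcr2, Csf3r, G0s2, Retnlg, Mmp8, Il1r2 and Trem1 with low C1q) held 82, 62 and 86 infarct cells and 102 baseline cells, although the sort had excluded Ly6G+ cells and Ly6g itself was near 0. Lcn2 stood there at 241 CPM at baseline and at 1159, 327 and 313 CPM after infarction, against 3.78, 1.59 and 1.71 CPM in the other infarct cells (log2 fold change 7.75, SE 0.172, an edgeR adjusted p too small to be written). These few cells held 63.9%, 41.6% and 47.5% of the Lcn2 UMIs of their libraries, and classical monocytes held 20.7% to 28.6%. A Lcn2 UMI was found in only 25.8% to 33.7% of the infarct cells of the granulocyte gate. The transcript was concentrated, with 125 of the 920 Lcn2 UMIs of infarct 1 in 1 cell.

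Hp (1362, 1051 and 891 CPM, log2 fold change 4.02, SE 0.138, edgeR adjusted p = 4.24e-181), Chil3 (857, 688 and 714 CPM, 3.27, SE 0.136, edgeR adjusted p = 9.17e-124) and Slpi (426, 648 and 346 CPM, 2.68, SE 0.143, edgeR adjusted p = 2.72e-75) were also higher in granulocytes. Saa3 was lower, at 442, 30.8 and 90.8 CPM against 1322, 64.3 and 545 CPM (-1.98, SE 0.161, edgeR adjusted p = 9.6e-33), a call lost without the heart as a block (adjusted p = 0.239, range 4.3e-36 to 0.239 over the 11 alternatives). Prtn3, although stored in neutrophil granules, stood at 439.6, 33.9 and 26.3 CPM against 51.6, 7.13 and 35.7 CPM. Its call (1.97, edgeR adjusted p = 2.19e-21) rested on infarct 1, since without that heart the value was 0.41 (adjusted p = 0.635, range 2.8e-34 to 0.635 over the 11 alternatives). Its SE was 0.198 although infarct 3 went the other way. The SEs and p-values of this small gate therefore do not measure the spread between hearts. Those of the other gates and of the comparisons below likewise come from the fit and should not be read as that spread. Over the 11 alternatives, fitted with edgeR or DESeq2, the adjusted p reached at most 2.06e-05 for Lcn2, 3.83e-05 for Hp, 3.85e-06 for Chil3 and 0.00352 for Slpi. Lbp (1.35, edgeR adjusted p = 0.0699) and Lyz2 (0.12, edgeR adjusted p = 0.513) did not pass. Thus 5 members were higher and 1 lower, where 6.72% and 8.0% of 12974 genes were called.

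**Figure D4:**
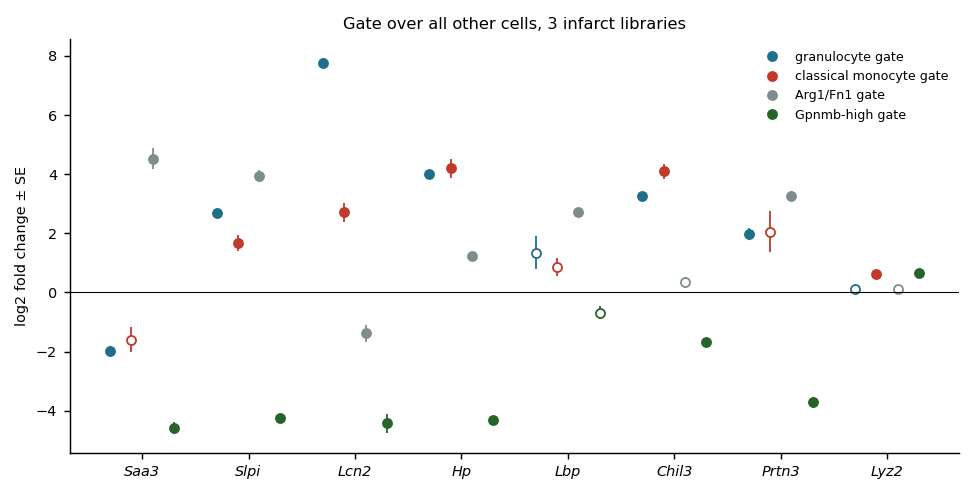
Log2 fold change (± SE, edgeR, 3 infarct hearts) of each gene in the granulocyte, classical monocyte, Arg1/Fn1 and Gpnmb-high gates over all other cells. Filled points passed an adjusted p of 0.01 and open points did not. The SE is that of the fit and, in the granulocyte gate as in the others, is not the spread between hearts. Saa3 is higher in the Arg1/Fn1 gate alone among these 4, Lcn2 is highest in granulocytes at 7.75, and Lyz2 stays within 1 of 0.

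Most members were low in the Gpnmb-high gate. Macrophages with 4 of Gpnmb, Syngr1, Gdf15, Trem2 and Fabp5 (1104, 1436 and 1327 infarct cells) held Saa3 at 47.7, 6.29 and 22.3 CPM (log2 fold change -4.59, SE 0.197, edgeR adjusted p = 2.96e-06) and Slpi at 4.50, 3.05 and 5.61 CPM (-4.24, SE 0.137, edgeR adjusted p = 1.08e-06). Hp (-4.32), Lcn2 (-4.43), Prtn3 (-3.72) and Chil3 (-1.67) were lower as well. Lyz2 was the exception, at 17194, 18264 and 20218 CPM against 12037, 12553 and 13806 CPM (0.64, SE 0.0454, edgeR adjusted p = 2.81e-05). In this gate 6 of 8 members were lower and 1 higher, where 24.7% of 13224 genes were called and 13.7% were lower.

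Interferon-response macrophages (4 of Ifit1, Ifit2, Ifit3, Rsad2, Cxcl10, Isg15 and Oasl1) had 6 of 8 members lower and 0 higher, where 13.0% of 13273 genes were called, 5.15% lower and 7.85% higher, with Slpi at -2.45 and Saa3 at -1.61. Type 2 dendritic cells had all 8 lower, where 35.1% of 13272 genes were called and 18.8% were lower. Lyz2 stood there at 1110.1, 1072 and 1652 CPM against 13183, 13758 and 15259 CPM (log2 fold change -3.49, SE 0.0730, edgeR adjusted p = 3.81e-12), and Lcn2 had 0 UMIs in 712 infarct cells, which allows up to 0.422 CPM. Macrophages with high C1q and 2 of Ly6c2, Ccr2 and Plac8 had Hp (0.33) and Chil3 (0.71) higher and 5 members lower, Lcn2 at -2.91 and Saa3 at -2.44 among them. There 7.01% of 13228 genes were called, 3.11% higher and 3.9% lower, and none of the 7 member calls held without the heart as a block.

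In order to see which transcripts went with Saa3 without any gate, monocytes and macrophages of the infarct hearts were thinned to 2000 UMIs and divided into the 1580, 148 and 916 cells with a Saa3 UMI and the others of their heart. Slpi stood at 339, 887 and 892 CPM in cells with Saa3 and at 17.7, 17.6 and 22.9 CPM in those without (log2 fold change 4.95, SE 0.148, edgeR adjusted p = 1.59e-19). A Slpi UMI was found in 18.3%, 31.8% and 27.9% of cells with Saa3 and in 2.06%, 1.86% and 2.77% of those without. Prtn3 stood at 182 ± 71.8 against 10.1 ± 5.97 CPM (4.06, SE 0.119, edgeR adjusted p = 1.13e-19), Lbp at 29.3 ± 8.01 against 2.04 ± 0.598 CPM (3.67, SE 0.254, edgeR adjusted p = 1.25e-11) and Hp at 163 ± 64.7 against 57.4 ± 20.9 CPM (1.37, SE 0.101, edgeR adjusted p = 4.7e-11).

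In the same comparison Chil3 was higher by 0.58 on the log2 scale (edgeR adjusted p = 0.0017), a call kept under 6 of 11 alternatives and lost without infarct 1 (0.26, adjusted p = 0.316, range 7.11e-11 to 0.316). Lcn2 (0.40, adjusted p = 0.713) and Lyz2 (-0.11, adjusted p = 0.211) did not pass. Of the 7 members tested 5 were higher and 0 lower, where 8.73% and 5.92% of 10993 genes were called. With the Arg1/Fn1 gate left out of these cells, Slpi was higher by 3.96 and 921 genes were called in place of 1611. Cells that met the Arg1/Fn1 rule but lay in an earlier gate stayed in, so this does not show Slpi without such cells. The Lyve1/Cd163/Folr2/Timd4 gate alone had 247, 15 and 197 of them before thinning. The highest log2 fold changes among genes at 50 CPM or more were of Marco (7.45), the scavenger receptor, Prg4 (6.95), the lubricin of joints and serous linings, Serpinb2 (5.62), Slpi (4.95) and Slc7a2 (4.56), the arginine transporter. The lowest were of Olfml3 (-1.48), Gpr34 (-1.41), Hpgd (-1.36), Ms4a7 (-1.34) and Cxcl10 (-1.33).

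Cells with a Chil3 UMI (854, 519 and 530) carried another set. Lcn2 stood at 13.4, 16.0 and 6.80 CPM against 0.962, 0.416 and 0.410 CPM (log2 fold change 4.31, SE 0.449, edgeR adjusted p = 5.66e-07) and Hp at 424, 362 and 456 CPM against 74.0, 22.8 and 30.8 CPM (3.43, SE 0.185, edgeR adjusted p = 1.52e-10). Prtn3 (1.66), Slpi (1.65) and Lyz2 (0.38) were higher, and Saa3 was not called (0.56, edgeR adjusted p = 0.0217), with infarct 1 at 3737 against 1492 CPM and infarct 3 at 574 against 624 CPM. Again 5 of 7 members were higher and 0 lower, where 7.01% and 4.65% of 10936 genes were called. The highest folds were of Vcan (3.46), Hp (3.43), Plac8 (3.42), Ly6c2 (3.41) and Mcemp1 (2.88), and the lowest of Cd81 (-1.84), Pmepa1 (-1.81), Col14a1 (-1.80), Ccnd1 (-1.57) and Blnk (-1.55). With classical monocytes left out, 300 genes were called in place of 1276.

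**Figure D5:**
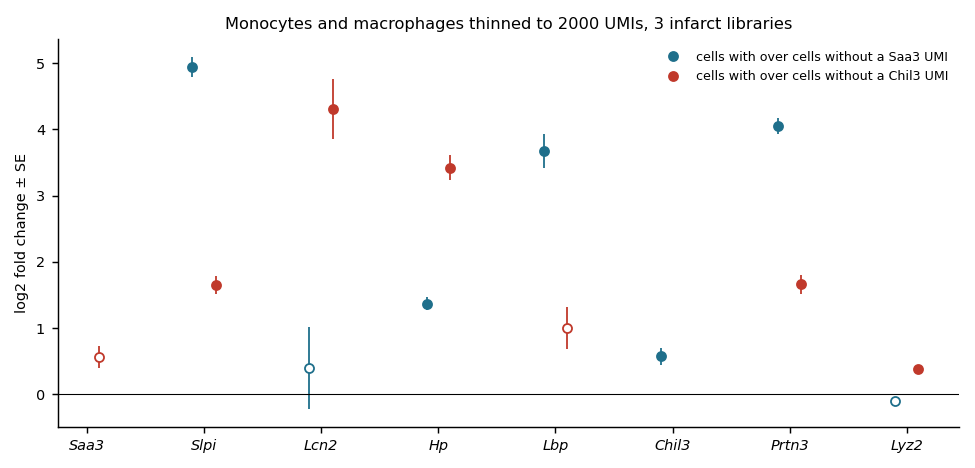
Log2 fold change (± SE, edgeR, 3 infarct hearts) of each gene in monocytes and macrophages with a Saa3 UMI (blue) or a Chil3 UMI (red) over those without, after thinning to 2000 UMIs. Filled points passed an adjusted p of 0.01, and the SE is that of the fit and not the spread between hearts. Slpi, Prtn3 and Lbp are highest with Saa3, and Lcn2 and Hp with Chil3.

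Other genes of these pathways were read from 4 lists, beside which 14.7% of all genes were called in either direction in granulocytes, 28.4% in classical monocytes and 13.6% in the Arg1/Fn1 gate. Of 28 granule and antimicrobial genes, 20 were tested in granulocytes, with 15 higher and 1 lower and a median log2 fold change of 3.83 (-0.19 over all genes), and 19 in the Arg1/Fn1 gate, with 7 higher and 2 lower and a median of 0.29 (-0.04 over all genes). The alarmins S100a8 (8.22 in granulocytes, -1.75 in the Arg1/Fn1 gate) and S100a9 (8.45 and -2.76) thus went the opposite way to Saa3, while Wfdc21, a whey-acidic-protein relative of Slpi, was higher in both (4.41 and 3.45), as was Acod1, the itaconate-producing enzyme (3.59 and 2.68). In classical monocytes 5 of 19 were higher and 0 lower, where 13.9% and 14.5% of all genes were called in these directions.

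Of 23 liver acute-phase genes, only 7 or 8 had enough counts for a test in these gates, with 4 higher and 1 lower in granulocytes, 3 and 2 in classical monocytes, and 2 and 1 in the Arg1/Fn1 gate. Their median log2 fold changes were 1.35, 0.49 and 0.79, against -0.19, -0.08 and -0.04 over all genes. C3, the complement component, was higher in all 3 gates (2.14, 2.32 and 1.14) and so was F5, coagulation factor V (2.54, 1.98 and 3.53), which is also on the list of cavity macrophage genes. The liver forms of serum amyloid were nearly absent, Saa1 with 0 to 17 UMIs and Saa2 with 0 to 2 per library.

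Of 16 receptors and partners of the members, 14 were tested, and 6 were higher and 1 lower in the Arg1/Fn1 gate. They included Fpr2, a formyl peptide receptor that binds serum amyloid A (1.69), Cd36, a scavenger receptor (2.35), and Hmox1, the haem oxygenase that acts downstream of haemoglobin-haptoglobin uptake (1.48). In granulocytes 4 were higher and 3 lower, with Fpr2 at 2.92, Cd36 at -1.20 and Hmox1 at -0.98. In classical monocytes 2 were higher and 2 lower, together near the 28.4% of all genes called in either direction. Of 19 acute-phase regulators, 1 was higher and 4 lower in the Arg1/Fn1 gate, 8 and 1 in granulocytes, and 8 and 2 in classical monocytes. Cebpb was higher in the Arg1/Fn1 gate (0.76), granulocytes (1.61) and classical monocytes (1.34), and Cebpd was lower in the first (-0.76) and higher in the others (1.48 and 0.99). All values in these lists are edgeR log2 fold changes that passed an adjusted p of 0.01.

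Likeness of levels was described over 38 sums of a gate in an infarct library, which share libraries and gates, by Pearson's r of log2(CPM + 10) among 5780 genes, without a test. Closest to Saa3 were Ednrb (0.88), Arg1 (0.87, itself a gate marker), Slc7a2 (0.86), Ltc4s (0.84) and Ehd1 (0.82). Closest to Slpi were Wfdc21 and Lrg1 (0.81 each), Prtn3 (0.80), Cox6a1 (0.78) and Tmem165 (0.77). Closest to Chil3 were Hp (0.94), Gm5150 (0.92), Vcan (0.91, a gate marker), Sirpb1c and Plaur (0.89 each), and closest to Lyz2 were Lrp1 (0.96), Fcgr3 and Hacd4 (0.94 each) and Mpp1 (0.93). Between members, r was 0.68 for Saa3 with Slpi, 0.76 for Saa3 with Prtn3, 0.17 for Saa3 with Chil3 and 0.00040 for Saa3 with Lcn2.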

How the data were processed

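Libraries were sequenced by the authors with the 10x Single Cell 3' v3.1 chemistry, and what was deposited is a matrix of unnormalized UMI counts for each library, made with Cell Ranger (3.1.0 per the file headers, 3.0.1 per the submitters' processing notes) on the mm10-3.0.0 reference. The study's filter of 500 to 40000 UMIs and more than 200 genes was applied to cells. The infarct replicates are separate hearts (n = 3), and the 2 sums compared within a library are paired because they were taken from 1 heart. The baseline is 1 library of 3 pooled hearts. The 8 genes, the marker gates and the gene lists were chosen with earlier results of these data known.

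Gates used raw UMIs of marker genes, with C1qa, C1qb and C1qc together below 10 (low) or at least 20 (high) per 10000 UMIs, and numeric cut points set without reading the 8 genes. A gate was compared with all other kept cells by summing counts per infarct heart (6 sums) and fitting edgeR 4.0.16 (R 4.3.3) with TMM scaling, filterByExpr and a quasi-likelihood test, the heart as a block, and Benjamini-Hochberg adjustment over all genes tested, with a threshold of 0.01. In all, 7 gates were tested. Single cells were never treated as replicates. No test was made of infarct against baseline CPM. Comparisons by a Saa3 or Chil3 UMI used cells thinned to 2000 UMIs. Intervals are exact at 95% and cover counting error only. The named genes are the 8 members, the 5 nearest by correlation to Saa3, Slpi, Chil3 and Lyz2, the 5 highest and 5 lowest called genes of the UMI comparisons, and at most 4 genes per list. A gene that this rule names and a gate marker are not reported here. Gata6 and the other cavity macrophage genes were chosen after their values were seen.

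Scrublet (scanpy 1.11.5) called 2.21% of baseline cells and at most 0.00962% of infarct cells automatically, so the top-scoring 8.1% to 8.63% of each library were removed as an alternative, and doublets were otherwise left in. The fitting code was run on simulated counts, with the same dispersion for all genes and no difference between hearts but depth. In the Arg1/Fn1 gate 198 of 200 changed genes were recovered among 13500, with 1 false call. In the Saa3 comparison 194 of 200 were recovered among 11007, with 7 false calls. The real hearts differed by more than depth, so these rates do not carry over to the data. Lyz2 and the near-identical Lyz1, and serum amyloid paralogs, can share or lose reads in counting. Promoters were matched by symbol for 6 of 8 genes. Software was Python 3.11.15, numpy 2.4.6, scipy 1.17.1, matplotlib 3.10.9 and DESeq2 1.42.0.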

Additional observations from a re-analysis of the deposited data

Results flagged for a closer look

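For 5 of the 8 genes, infarct libraries lay all above baseline in at least 1 gate and all below it in at least 1 other, which singled them out. The share of all genes that do so was not counted, so the 5 are not read as a result about these members. None of these differences between gates was tested, since baseline is 1 library, and the values are log2 ratios of the infarct mean to baseline. Slpi was 4.19 in the Lyve1/Cd163/Folr2/Timd4 gate and -3.55 in the other C1q-high macrophages, where 12 baseline cells held most of its UMIs. Prtn3 was 7.08 and -0.66 in the same 2 gates. In the second, its infarct levels reached 4.16 CPM, inside the baseline interval of 3.36 to 5.39 CPM. Hp was 2.93 in the Lyve1/Cd163/Folr2/Timd4 gate and -3.08 in the Gpnmb-high gate, which held 44 baseline cells. Chil3 was 0.54 in the other C1q-high macrophages and -1.54 in interferon-response macrophages. In the first, its lowest infarct level of 10.2 CPM lay inside the baseline interval of 8.54 to 11.6 CPM. Lyz2 was 0.22 in cycling macrophages and -2.05 in type 2 dendritic cells.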

How the results depend on the processing

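Of the 45 calls of a member in a gate, 45 were kept with DESeq2 size factors and with no filter on low counts, 42 with the DESeq2 Wald test, 44 with other mononuclear phagocytes as the comparator, 43 with stricter gates, 43 with doublets removed and 40 with cells thinned to 2000 UMIs. Leaving out infarct 1, 2 or 3 kept 41, 44 and 44. Without the replicate block that pairs the sums of a heart, 23 were kept. Members called without that block were 0 in the transitional gate (7 with it), 2 in the Arg1/Fn1 gate (6), 3 in interferon-response macrophages (6) and 4 in type 2 dendritic cells (8). Stricter gates gave 8 in classical monocytes (5), and thinning gave 4 in the transitional gate (7). With a heart left out, members called were 5 to 6 in granulocytes, 5 to 7 in classical monocytes, 5 to 6 in the transitional gate, 5 to 7 in the Arg1/Fn1 gate, 6 in interferon-response macrophages, 7 to 8 in the Gpnmb-high gate and 8 in type 2 dendritic cells.

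In the Saa3 comparison (1611 genes called) the Wald test gave 849, no block 997, leaving out the Arg1/Fn1 gate 921, and leaving out a heart 821 (infarct 3) to 1210. In the Chil3 comparison (1276) the Wald test gave 748, no block 325, thinning to 1000 UMIs 676, leaving out classical monocytes 300, and leaving out a heart 1033 to 1232. The cause of these shifts was not tested, apart from the fewer cells compared where a gate was left out.

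Signs turned for Prtn3 in the transitional gate with stricter gates (0.072, adjusted p = 0.957), for Hp there with doublets removed (-0.15, adjusted p = 0.360) and for Lcn2 in the Arg1/Fn1 gate with other mononuclear phagocytes (0.15, adjusted p = 0.795), none past the threshold. Against baseline, 4 members met the fold rule, also with each infarct heart left out, and 2 did, both above it, without the granulocyte, classical monocyte and Arg1/Fn1 gates. TMM scaling moved the median of all genes from -0.21 to 0.07. Chil3 (-1.20) fell short of the rule under TMM scaling (-0.92), with CPM averaged over single cells (-0.71) and without those gates (-0.84), and no direction of the 4 turned.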

Other observations

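Cycling macrophages (151, 229 and 241 infarct cells, 102 at baseline) held Saa3 at 302, 206 and 776 CPM and had no Saa3 UMI at baseline. Lyz1, the lysozyme best known from Paneth cells and near-identical to Lyz2, went another way than Lyz2, at 145 CPM at baseline and 20.0, 11.7 and 27.0 CPM after infarction. In infarct 2, 1 cell held 184 of the 678 Prtn3 UMIs. Elane, the neighbouring neutrophil elastase, had 3 UMIs at baseline and 82, 103 and 14 after infarction, against 311 Prtn3 UMIs at baseline and 4761, 678 and 3039 after infarction.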
